A study of Homo sapiens with 6 samples.

Results

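AP-1 is the collective name for dimers of FOS and JUN proteins. The 10 genes described here are its FOS-side subunits (FOS, FOSB, FOSL1, FOSL2), its JUN-side subunits (JUN, JUNB, JUND), the related repressor ATF3, and the zinc finger factors EGR1 and KLF6. They were chosen by gene symbol, and all 10 were found among the 60669 genes of the table. All 10 also reached a mean of at least 10 normalized counts over the libraries, as did 15637 genes in all. RNA was measured by sequencing of mRNA libraries from LX-2, an immortalized line of human hepatic stellate cells, the collagen-producing cells of liver fibrosis, here labelled as activated and of wild-type genotype. The cells had been transfected for 48 h with siADAMTS12, a single small interfering RNA (siRNA) against the secreted metalloprotease ADAMTS12, or with siCTL, a commercial negative control siRNA. Each group had 3 libraries. Both groups received the same lipid reagent, no untransfected cells were analysed here, and every library came from the same line grown with serum, so a response to transfection that both groups share cannot be seen.

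Resting cells usually hold little FOS or EGR1 RNA. Serum, growth factors and stress act through MAP kinases and serum response factor (SRF) to switch these immediate early genes on within minutes, and the transcripts are then cleared fast through AU-rich elements. FOS proteins bind DNA only when paired with a JUN protein, whereas JUN proteins can also pair with each other. In hepatic stellate cells of the rat, KLF6 was described as an early response gene of activation, and JUND as an AP-1 subunit acting on TIMP1.

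The knockdown was checked first. ADAMTS12 stood at 4083, 3449 and 3687 normalized counts in siADAMTS12 replicates 1, 2 and 3, against 13709, 12235 and 13423 in the siCTL replicates, so 28.5% of the transcript was left. Stellate and myofibroblast markers summed to 285155 to 308753 normalized counts per siADAMTS12 library and 376952 to 418755 per siCTL library, and 5 of the 9 marker genes tested fell (PDGFRB, VIM, TAGLN, LUM and THY1), against 15.5% of all genes tested. Desmin (DES), a marker of stellate cells in the rat, had at most 5 counts in any library. The hepatocyte markers summed to 22 to 28 in siADAMTS12 libraries and 17 to 19 in siCTL libraries, with TTR at 0 throughout. Macrophage and leukocyte markers summed to 104 to 126 in siADAMTS12 and 101 to 122 in siCTL libraries, most of it CD14. Bile duct markers summed to 1733 to 2071 in siADAMTS12 and 1874 to 2232 in siCTL libraries, most of it SOX9. The endothelial sums were 65 to 79 in siADAMTS12 and 139 to 157 in siCTL libraries, with the VEGF receptor gene KDR called as fallen and STAB2 at 0. In such bulk RNA, fewer cells of a kind and less RNA per cell cannot be told apart. Whether these marker differences have a part in the results on the transcription factors was not tested.

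Because the siRNA itself can silence transcripts that match its guide strand, the sequence that the study used is shown with its matches in the genes described here. The match is read in the 3' untranslated region (3' UTR) of 1 transcript per gene, from GENCODE 29 on GRCh38. Capitals mark AGGGAA, which pairs with positions 2 to 7 of the guide and lies at bases 13 to 18 of the 19-base sense strand.
siADAMTS12 sense: gccaaaguuuggAGGGAAa
FOS site: gggggcAGGGAAggggaggcagccggcacc
FOSB site: ccccccccttaaAGGGAAttcgatgccccc
FOSL1 site: gccttcagctccAGGGAAtccaagcctcca
EGR1 sites: AGGGAAaggggaaagaaAGGGAAaagggag
KLF6 first site: tgtgggcacagtAGGGAAccatgccggttt
KLF6 second site: attgctcaagccAGGGAAtgcattgcagag

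These windows lie at chr14:75281425-75281454 (plus strand) for FOS, chr19:45473589-45473618 (plus) for FOSB, chr11:65892306-65892335 (minus) for FOSL1 and chr5:138468082-138468111 (plus) for EGR1. The KLF6 windows lie at chr10:3776273-3776302 and chr10:3776235-3776264 (minus). FOS, FOSB, FOSL1, EGR1 and KLF6 thus held the 6-base match, 5 of the 10 genes, and FOSL2, JUN, JUNB, JUND and ATF3 held none. None of the 10 held the longer match GAGGGAA, to guide positions 2 to 8. In EGR1 both matches were followed by an A, the AGGGAAA form. The match began at base 7 of the 3' UTR in FOS, 1 and 18 in EGR1, 589 in FOSB and 563 in FOSL1. In KLF6 the matches began at bases 3249 and 3287 of 3543. Among all 12632 genes tested with a 3' UTR of at least 30 bases, AGGGAA was in 41.4%, in 61.4% of those that fell and in 38.5% of those that rose. The share grew with length, from 10.9% of 3' UTRs up to 600 bases to 89.0% of those over 4000 bases. FOSL2, with no match, has a 3' UTR of 4864 bases, and FOSL1, with a match, one of 666 bases. Genes with AGGGAA but not the longer match had a median log2 fold change of -0.04 (3249 genes, 21.7% fell), against 0.02 for the 7407 genes with neither (12% fell). A match is a description of the letters and does not show that the siRNA acted on that transcript.

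The 10 transcription factor genes did not change in one direction after siADAMTS12. KLF6, FOS and FOSL2 fell and JUND rose, so 4 of the 10 genes passed the test, against 27.0% of all genes tested (15.5% fell and 11.5% rose). The test was limma on log2(normalized count + 1), with p-values adjusted by the Benjamini-Hochberg method over all genes tested and a threshold of 0.05. The same 4 genes were those whose groups did not overlap, which held for 40.9% of all genes tested. With the replicate number as a block, 8 of the 10 passed, against 35.1% of all genes tested. In that fit EGR1, FOS, FOSB, FOSL1, FOSL2 and KLF6 fell (6 of 10, against 19.6% of all genes tested), JUNB and JUND rose (2 of 10, against 15.5%), and JUN and ATF3 did not pass. All 3 same-numbered differences had one sign in 9 of the 10 genes, JUN being the exception, against 59.4% of all genes tested. Of the 6 genes that fell with the block, 5 held AGGGAA in the 3' UTR and FOSL2 did not. The part of the siRNA match in these values was not tested.

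The genes lie apart in the genome (GRCh38, GENCODE 29). FOSB (ENSG00000125740) spans 45467995 to 45475179 on the plus strand of chromosome 19, and JUNB (ENSG00000171223) spans 12791496 to 12793315 on the same strand. FOSL1 (ENSG00000175592) spans 65892049 to 65900573 on the minus strand of chromosome 11, and FOSL2 (ENSG00000075426) spans 28392448 to 28417312 on the plus strand of chromosome 2. On chromosome 1, JUN (ENSG00000177606) spans 58780788 to 58784327 on the minus strand and ATF3 (ENSG00000162772) spans 212565334 to 212620777 on the plus strand.

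**Figure D1:**
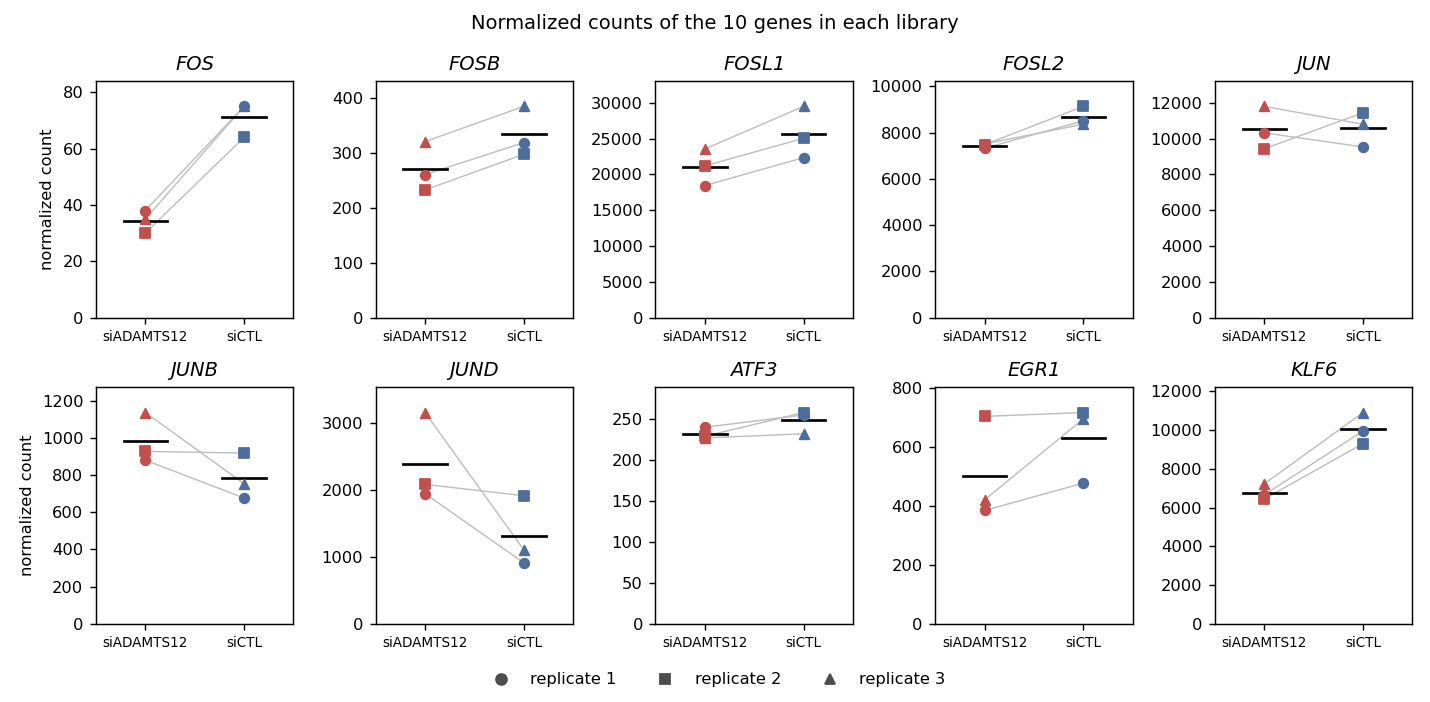
Normalized counts of each of the 10 genes by library (y axis, from 0) in siADAMTS12 (red) and siCTL (blue). Marker shapes give the replicate number, thin lines join libraries with the same number and black bars are means of 3. KLF6, FOS and FOSL2 lie lower and JUND higher in siADAMTS12 with no overlap between groups, while the JUN points of the groups cross.

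KLF6, a zinc finger activator of COL1A1 and TGF-beta pathway genes, showed the fall with the smallest p-value among the 10. KLF6 (ENSG00000067082, chromosome 10, 3775996 to 3785281, minus strand, GRCh38) had 6661, 6444 and 7226 normalized counts in siADAMTS12 replicates 1, 2 and 3, against 9960, 9307 and 10913 in the siCTL replicates. The groups were well apart, and replicate 3 was the highest and replicate 2 the lowest in both. The mean was 6777 ± 404 in siADAMTS12 and 10060 ± 808 in siCTL libraries (SD, n = 3 each), or 67.4% of the siCTL level. KLF6 changed by -0.57 ± 0.07 on the log2 scale (SE; limma adjusted p = 0.000162). An exact 2-sided permutation test gave p = 0.1, and no smaller value can be reached with 3 libraries a group. KLF6 stayed past the threshold in all 15 alternative settings, at log2 values of -0.62 to -0.42.

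FOS, the founding member of its family and the textbook immediate early gene, fell after siADAMTS12. FOS (ENSG00000170345, chromosome 14, 75278774 to 75282230, plus strand) had 38, 30 and 35 normalized counts in the siADAMTS12 replicates, against 75, 64 and 75 in the siCTL replicates. These are low levels, the lowest of the 10 genes, yet every siADAMTS12 library lay under every siCTL library. The mean was 34.3 ± 4.04 in siADAMTS12 and 71.3 ± 6.35 in siCTL libraries (SD, n = 3 each), 48.1% of the siCTL level. FOS changed by -1.04 ± 0.19 on the log2 scale (SE; limma adjusted p = 0.00195; exact permutation p = 0.1), understated a little by the added 1. The same-numbered differences were close to each other, at log2 values of -0.96, -1.07 and -1.08.

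FOSB, which like FOS carries a strong activation domain in its long form, had 260, 232 and 320 normalized counts in siADAMTS12 replicates 1, 2 and 3, and 318, 297 and 384 in siCTL. The groups overlapped, but the order of the replicates was the same in both, with replicate 3 highest. FOSB was at a log2 fold change of -0.30 ± 0.14 (SE; limma adjusted p = 0.128), and it passed with the replicate block (SE 0.08, adjusted p = 0.0217).

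FOSL1 encodes FRA1, a FOS relative without the strong activation domain that accumulates under lasting ERK signalling. It had 18444, 21192 and 23549 normalized counts in the siADAMTS12 replicates, against 22342, 25053 and 29512 in the siCTL replicates. Replicate 1 was lowest and replicate 3 highest in both groups, and the groups overlapped. FOSL1 was at a log2 fold change of -0.28 ± 0.11 without the block (SE; limma adjusted p = 0.0795), and the same-numbered differences were -0.28, -0.24 and -0.33. With the replicate block the adjusted p of FOSL1 was 0.00154 (SE 0.05). Without siADAMTS12 replicate 3 or siCTL replicate 1 it passed also without the block (adjusted p = 0.0470 and 0.0322), and after quantile normalization its fold change was -0.06.

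FOSL2, which encodes FRA2, had 7328, 7479 and 7513 normalized counts in the siADAMTS12 replicates, against 8513, 9139 and 8368 in the siCTL replicates. The siADAMTS12 libraries lay close together and all under the siCTL libraries. FOSL2 changed by -0.22 ± 0.06 on the log2 scale (SE; limma adjusted p = 0.0161; exact permutation p = 0.1). This small fall did not pass without siADAMTS12 replicate 1 (adjusted p = 0.0538) or siCTL replicate 2 (0.0617), without the intensity trend (0.0548), after quantile normalization (log2 fold change -0.06, adjusted p = 0.507) or with equal library totals (-0.10, adjusted p = 0.225). Equal totals move the median over all genes tested to 0.13, against 0.0050 as deposited. Among the 4 FOS-family genes the fold change was thus largest in FOS, the scarcest of them.

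JUND rose after siADAMTS12. JUND is intronless (ENSG00000130522, chromosome 19, 18279760 to 18281622, minus strand) and is commonly made steadily where its relatives are induced. It had 1941, 2079 and 3152 normalized counts in siADAMTS12 replicates 1, 2 and 3, against 908, 1911 and 1103 in the siCTL replicates. The groups did not overlap, but siCTL replicate 2 lay close below the lowest siADAMTS12 library, and siADAMTS12 replicate 3 lay far above the others. The mean was 2391 ± 663 in siADAMTS12 and 1307 ± 532 in siCTL libraries (SD, n = 3 each). JUND changed by 0.91 ± 0.24 on the log2 scale (SE; limma adjusted p = 0.0156; exact permutation p = 0.1), and the same-numbered differences ran from 0.12 in replicate 2 to 1.51 in replicate 3. The call was lost without siADAMTS12 replicate 3 (0.69, adjusted p = 0.0637), siCTL replicate 1 (0.68, 0.0519) or siCTL replicate 3 (0.82, 0.0661), and without the intensity trend (0.0993).

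JUND also has an extreme base composition, and the libraries differed by base composition. Its transcript is 69.7% G and C, above 99.6% of the genes tested, and JUNB at 64.9% lies above 96.0%. Over the 93 genes tested with more than 69% GC, the median deviation from the 6-library mean was 0.13, 0.01 and 0.37 in siADAMTS12 replicates 1, 2 and 3, and -0.30, 0.13 and -0.30 in the siCTL replicates (log2). The libraries high for these genes were thus largely those high for JUND. With a lowess trend over GC content taken out of each library, an alternative chosen after seeing the data, JUND was at a log2 fold change of 0.69 ± 0.18 (SE; limma adjusted p = 0.0161). JUNB was at 0.21 ± 0.10 (adjusted p = 0.153) in that fit. KLF6, of 45.9% GC, and FOS, of 52.6%, were at -0.53 and -1.03. The same 4 genes passed as without the correction, 3 that fell, against 16.0% of all genes tested with a GC value, and 1 that rose, against 13.2%. The trend was smoothed over a span of 0.2 of the genes, and JUND lies at the edge of the GC range. Whether the correction takes the whole GC difference out of JUND was not tested.

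**Figure D2:**
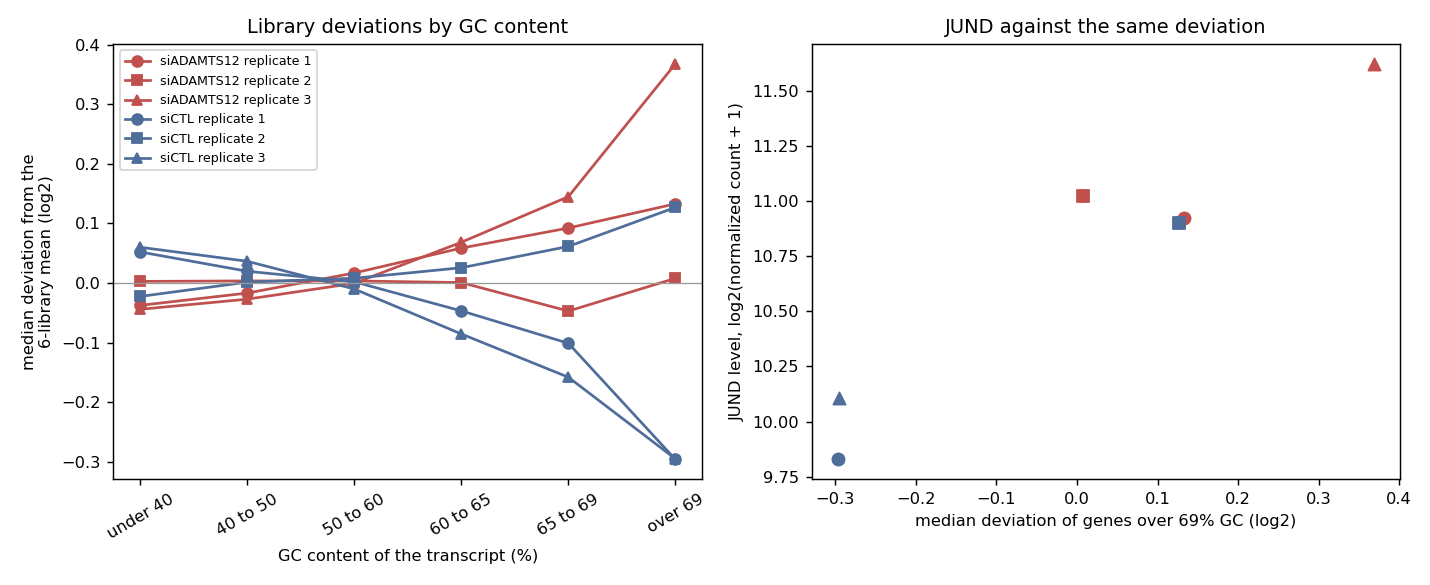
Left, the median log2 deviation of each library from the 6-library mean (y axis) for genes binned by transcript GC content in percent (x axis), siADAMTS12 in red and siCTL in blue. Right, the JUND level of each library as log2(normalized count + 1) against its deviation for genes over 69% GC. siADAMTS12 replicate 3 is highest on both axes, and siCTL replicates 1 and 3 are lowest on both.

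JUNB, an AP-1 subunit that can hold back JUN at some promoters, had 880, 927 and 1136 normalized counts in the siADAMTS12 replicates, against 676, 918 and 753 in the siCTL replicates. Only siCTL replicate 2 reached into the siADAMTS12 range. Its log2 fold change was 0.33 ± 0.12 (SE; limma adjusted p = 0.0665), with adjusted p = 0.0301 under the replicate block. JUNB passed without siADAMTS12 replicate 1 (0.40, adjusted p = 0.0442) and without siCTL replicate 2 (0.45, 0.0207), and with equal library totals (0.45, 0.0181). It was at 0.22 without siADAMTS12 replicate 3 (adjusted p = 0.245) and at 0.23 without siCTL replicate 1 (0.211). HOOK2, annotated on the opposite strand, shares 259 exonic bases with JUNB in GENCODE 29. Whether reads were counted by strand is not given in the sources used here. HOOK2 averaged 647 ± 31.6 normalized counts in siADAMTS12 and 563 ± 40.1 in siCTL libraries (SD, n = 3 each; limma adjusted p = 0.0984), and reads of the pair in the shared stretch cannot be told apart if strand was not used.

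JUN, the main partner of FOS proteins and a target of JNK kinases, had 10314, 9429 and 11795 normalized counts in the siADAMTS12 replicates, against 9531, 11438 and 10797 in the siCTL replicates. The values were interleaved. JUN was at a log2 fold change of -0.01, with a 95% interval of -0.21 to 0.19 (limma adjusted p = 0.944). It passed in none of the 15 alternative settings, and its sign was positive in some (0.13 after quantile normalization, 0.11 with equal library totals).

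ATF3, a stress-induced repressor that pairs with JUN proteins, had 240, 229 and 227 normalized counts in siADAMTS12, against 255, 258 and 232 in siCTL. ATF3 was at a log2 fold change of -0.10, with a 95% interval of -0.32 to 0.13 (limma adjusted p = 0.526), and at 0.03 with equal library totals. The ATF3 interval includes the FOSL2 fold change, and the JUN interval ends just short of it.

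EGR1, an immediate early zinc finger factor with SRF sites in its promoter, spread most among replicates after JUND. EGR1 (ENSG00000120738, chromosome 5, 138465490 to 138469315, plus strand) had 385, 705 and 421 normalized counts in siADAMTS12 replicates 1, 2 and 3, against 478, 718 and 696 in the siCTL replicates. Replicate 2 was high in both groups, and siADAMTS12 replicate 2 was nearly at the siCTL replicate 2 level. EGR1 was at a log2 fold change of -0.35 ± 0.21 (SE; limma adjusted p = 0.244). EGR1 passed with the replicate block (adjusted p = 0.0427) and without siADAMTS12 replicate 2 (-0.62, adjusted p = 0.0151), and it was at -0.19 without siADAMTS12 replicate 1 (adjusted p = 0.563). Its relative EGR2 was also highest in siADAMTS12 replicate 2, with 18, 56 and 20 normalized counts in the siADAMTS12 replicates, against 42, 55 and 34 in the siCTL replicates.

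**Figure D3:**
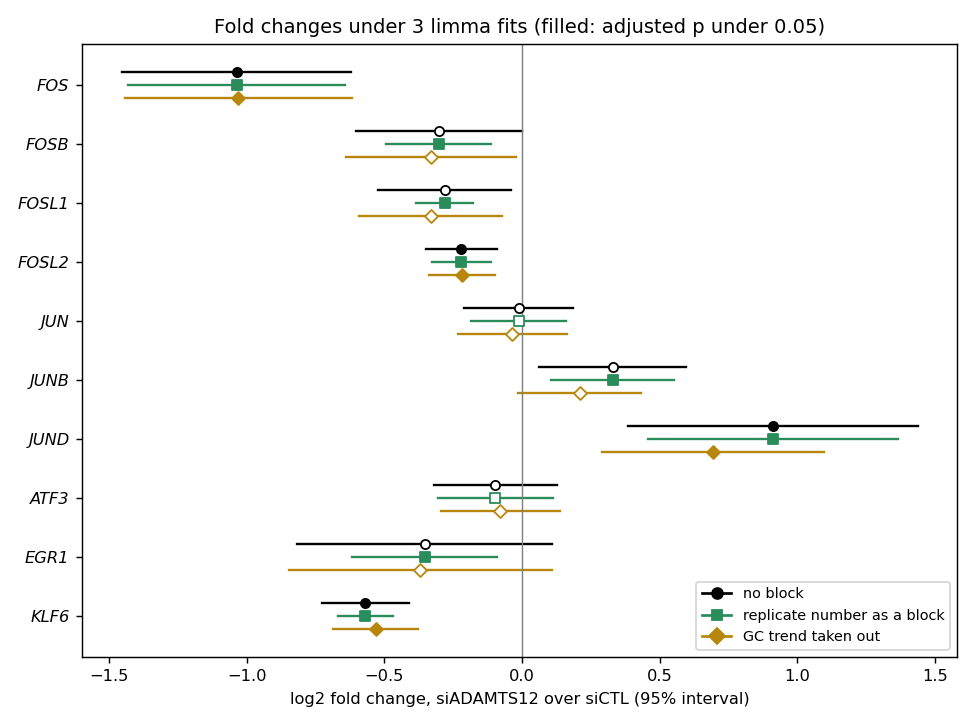
Log2 fold changes of siADAMTS12 over siCTL (x axis) for the 10 genes with 95% intervals, from limma without a block (black), with the replicate number as a block (green) and with a trend over GC content taken out (gold). Filled markers have an adjusted p under 0.05. KLF6, FOS, FOSL2 and JUND are filled in all 3 fits, and FOSB, FOSL1, JUNB and EGR1 only with the block.

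Levels per kilobase (kb) of annotated exon allow the subunits to be set beside each other, though the authors' annotation may differ from the one used here. FOSL1 was the most abundant of the 10 genes, with 11160 ± 1350 normalized counts per kb in siADAMTS12 and 13590 ± 1920 in siCTL libraries (SD, n = 3 each), and its mean over the 6 libraries exceeded that of 99.7% of genes tested. JUN followed, with 2970 ± 338 in siADAMTS12 and 2991 ± 274 in siCTL libraries per kb. KLF6, FOSL2 and JUND lay next, with means over the 6 libraries of 1371, 1126 and 992.5 normalized counts per kb, and their ranges over libraries overlapped. JUNB (484), whose range overlapped that of JUND, and EGR1 (181) came below. ATF3 (59.45) and FOSB (54.4), whose ranges overlapped, and FOS (16.3) were the lowest. Divided by the length of 1 transcript instead, ATF3 was at 114 ± 3.44 in siADAMTS12 and 122 ± 7.0 in siCTL libraries (SD, n = 3 each), above the range of FOSB and meeting that of EGR1.

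FOSL1 made up 91.0 ± 0.88% of the FOS-family sum per kb in siADAMTS12 and 91.2 ± 1.2% in siCTL libraries (SD, n = 3 each). FOSL2 took 8.54 ± 0.86% in siADAMTS12 and 8.24 ± 1.2% in siCTL libraries. FOSB took 0.398% in siADAMTS12 and 0.404% in siCTL libraries, and FOS 0.0876 ± 0.018% in siADAMTS12 against 0.15 ± 0.023% in siCTL libraries. The FOSL1, FOSL2 and FOSB shares overlapped between groups, and the FOS shares did not.

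In the JUN family the group means lay further apart. JUND made up 23.5, 26 and 30% of the JUN-family sum per kb in the siADAMTS12 replicates, against 13.7, 21.5 and 14.6% in the siCTL replicates. JUN made up 65.6, 62.1 and 59% in siADAMTS12, against 75.8, 67.9 and 75.2% in siCTL, and JUNB 10.9, 11.9 and 11.1% in siADAMTS12, against 10.5, 10.6 and 10.2% in siCTL. None of the 3 shares overlapped between groups, and siCTL replicate 2 was the siCTL library nearest to the siADAMTS12 libraries. The shares of a library are parts of the same sum and cannot move separately. As counts, JUN was interleaved and JUNB overlapped between groups. These shares rest on the same values as the fold changes, so the GC difference given for JUND applies to them as well, and they carry no test of their own.

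**Figure D4:**
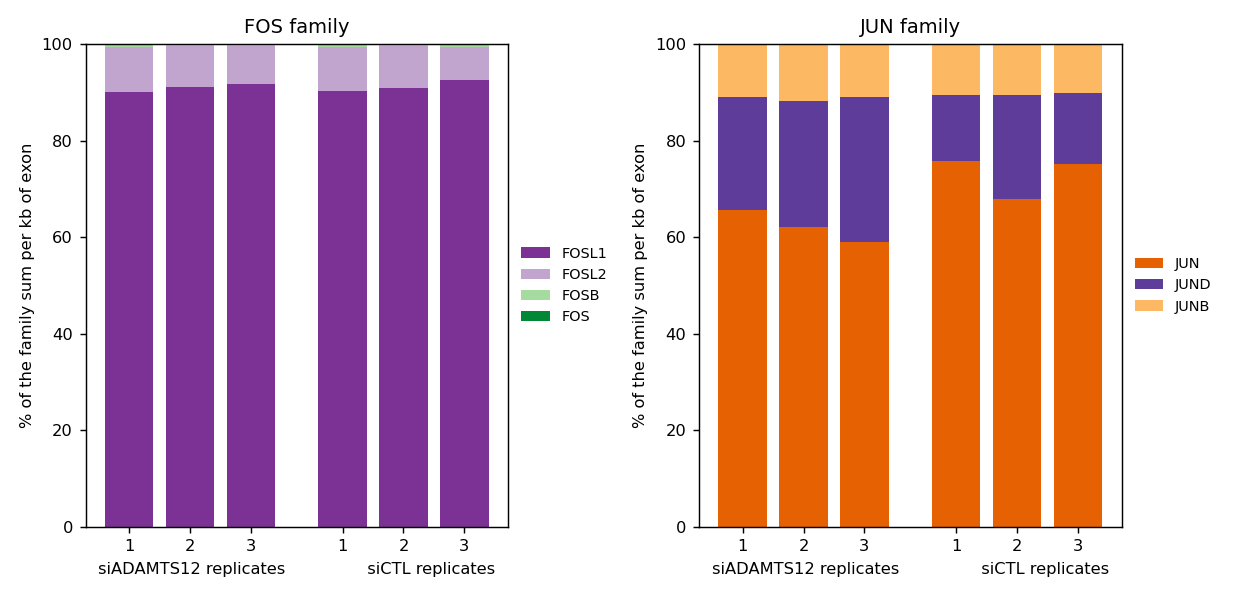
Share of each subunit in the summed normalized counts per kb of exon (y axis, percent) of the FOS family (left) and the JUN family (right), for each siADAMTS12 and siCTL library. FOSL1 fills 90.0 to 92.5% of the FOS-family bars, with FOS and FOSB too thin to see, and the JUND part is thicker in siADAMTS12 (23.5 to 30%) than in siCTL (13.7 to 21.5%).

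AP-1 genes are known to be targets of AP-1 and of CREB and ATF proteins. Parts of the promoters are shown because KLF6, FOS, FOSL2 and JUND changed while JUN did not pass. RefSeq promoters on GRCh38.p14, from 250 bases before to 50 after the start, were matched for 9 of the 10 genes (FOSL1 was not matched). They were searched on both strands for TGACTCA, TGACGTCA, TGACATCA, the CArG box bound by SRF, GCGTGGGCG and GCGGGGGCG, the last pair being EGR1 sites. Capitals mark the matched letters.
JUN: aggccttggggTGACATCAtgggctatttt
ATF3: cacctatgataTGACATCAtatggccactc
KLF6: ttggccggagcTGACATCAtcggcgcgcag
JUND: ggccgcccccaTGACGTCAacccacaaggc
FOSL2: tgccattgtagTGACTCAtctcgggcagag
EGR1 first CArG box: ggccggtcctgCCATATTAGGgcttcctgc
EGR1 second CArG box: cttcctgcttcCCATATATGGccatgtacg

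The JUN window is chr1:58784096-58784125 (minus strand), the ATF3 window chr1:212565273-212565302 (plus), the KLF6 window chr10:3785363-3785392 (minus) and the JUND window chr19:18281804-18281833 (minus). FOSL2 lies at chr2:28392851-28392880 and EGR1 at chr5:138465363-138465392 and chr5:138465385-138465414 (plus). The FOSL2 match lies after the RefSeq start and the other matches before it. By the GENCODE spans given above, the FOSL2 and JUN windows lie inside the gene. TGACATCA, in JUN, ATF3 and KLF6, was in 2.61% of all 35116 promoters of this length. TGACGTCA was in 1.85%, TGACTCA in 4.95% and the CArG box in 1.29%. GCGGGGGCG was in the KLF6 promoter and in 5.07% of all promoters, and GCGTGGGCG in none of the 9 genes and 0.795% of all. Of the 3 genes that shared TGACATCA, KLF6 fell, while JUN and ATF3 did not pass the test. Within this window, the promoters of FOS, which fell, and of FOSB and JUNB held none of the motifs searched. Sites more than 250 bases before the start were not searched, so a gene without a match here may hold one farther out.

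Each of the 10 transcripts held ATTTA, the core of AU-rich elements that speed mRNA decay, in the 3' UTR, as did 70.9% of all 3' UTRs searched. FOSL2 had 9 such pentamers, KLF6 had 6 and FOS had 5. Genes that act on these transcripts or on the proteins were read next. Of 10 genes for mRNA and protein turnover, 3 rose and 2 fell (median log2 fold change -0.0024, against 0.0050 over all genes tested, of which 11.5% rose and 15.5% fell). ELAVL1, which encodes HuR, a protein that stabilizes AU-rich mRNAs, had 4759, 4795 and 4637 normalized counts in siADAMTS12, against 2616, 2611 and 2641 in siCTL (log2 fold change 0.85, limma adjusted p = 8.86e-07). KHSRP, which promotes decay of such mRNAs, was at 0.30 (adjusted p = 0.0115), a call lost without the intensity trend (0.0583). Without that trend 3 of the 10 turnover genes passed, against 3345 of all 15637 genes tested. The ubiquitin ligase genes that act on JUN went both ways: COP1 fell to 641, 567 and 636 in siADAMTS12, against 1139, 1121 and 1054 in siCTL (-0.85), ITCH was at -0.18 (adjusted p = 0.0454), and FBXW7 rose (0.46, adjusted p = 0.00207).

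Of 27 upstream kinase and SRF genes tested, 2 rose and 4 fell (median log2 fold change 0.0064), against 11.5% and 15.5% of all genes tested, so the share past the threshold was near that of all genes. With the replicate block 11 passed, against 35.1% of all genes tested, and 11 with equal library totals, against 34.6% (24.7% rose and 9.89% fell). The 4 that fell, MAPK8, ELK4 and RPS6KA5 among them, all held the longer siRNA match GAGGGAA in the 3' UTR, which 30.7% of all genes that fell and 15.6% of all genes searched held. AGGGAA was in 15 of the 27 genes tested and in neither of the 2 that rose. The part of the siRNA match in these falls was not tested. MAPK8 encodes JNK1, which phosphorylates JUN, and had 1753, 1604 and 1825 normalized counts in siADAMTS12, against 3208, 2819 and 3011 in siCTL (-0.80, limma adjusted p = 1.12e-05). ELK4, an ETS partner of SRF, was at -0.86 and RPS6KA5, which encodes the ERK and p38 effector MSK1, at -0.97. MAP2K2, which encodes the ERK activator MEK2, rose to 4675, 3982 and 4737 in siADAMTS12, against 2854, 2974 and 2829 in siCTL (0.63, adjusted p = 8.32e-05). MAPK7, which encodes ERK5, was at 0.22 (adjusted p = 0.04997, just inside the threshold). SRF itself was at -0.12 (adjusted p = 0.224).

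Of 10 partner bZIP genes tested, 1 rose and 1 fell (median -0.04), against 11.5% and 15.5% of all genes tested, and 5 passed with the replicate block, against 35.1%. Without siADAMTS12 replicate 1 the number past the threshold was 4, where 3513 of all 15637 genes tested passed. Without siADAMTS12 replicate 3 or siCTL replicate 3 it was 1, where 3103 and 3278 passed. MAFF, a small MAF protein, fell to 888, 747 and 1014 normalized counts in siADAMTS12, against 1368, 1271 and 1513 in siCTL (log2 fold change -0.66, limma adjusted p = 0.000944). BATF2, a JUN partner linked to interferon responses, was at 0.65 (adjusted p = 0.0156), a call lost without siADAMTS12 replicate 2 (0.0545), siADAMTS12 replicate 3 (0.0577) or siCTL replicate 3 (0.0517). BATF and MAF were below the filter on low values. Of 4 EGR relatives and co-repressors tested (27.0% of all genes tested passed), WT1, whose protein binds GC-rich sites like those of EGR1, was the only one that fell (-1.21, adjusted p = 8.36e-06), and the EGR co-repressors NAB1 and NAB2 were at -0.01 and -0.03. EGR3 and EGR4 were below the filter. Of 14 other KLF genes tested, 1 rose and 1 fell (median 0.08), against 11.5% and 15.5% of all genes tested. With equal library totals 4 passed, against 34.6% of all genes tested, and with the GC correction 4, against 29.2%. KLF5 had 291, 401 and 338 in siADAMTS12 against 646, 747 and 796 in siCTL (-1.09), and KLF9, which glucocorticoids induce, was at 0.50 (adjusted p = 0.00310). KLF5, which fell, and KLF9, which rose, each held the longer siRNA match GAGGGAA in the 3' UTR. KLF7, the closest relative of KLF6, was at 0.12 (adjusted p = 0.266).

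Of 26 other immediate early genes tested, 2 rose and 6 fell (median -0.07), against 11.5% and 15.5% of all genes tested. Without siCTL replicate 3 or without the intensity trend the number past the threshold was 2, where 3278 and 3345 of all 15637 genes tested passed. It was 5 without siADAMTS12 replicate 1 or siCTL replicate 2 (3513 and 3463 of all genes tested), and 9 without siADAMTS12 replicate 2 (3991). With the replicate block 11 passed, against 35.1% of all genes tested. With the GC correction and replicate block together 13 passed, against 40.9%. TNFAIP3, a brake on NF-kappaB, had 2749, 2363 and 3080 normalized counts in siADAMTS12, against 4666, 4294 and 5400 in siCTL (log2 fold change -0.81, limma adjusted p = 0.000154). HBEGF, an EGF receptor ligand, and GADD45B, a stress gene, were at -0.28 and -0.29 (adjusted p = 0.0112 and 0.0128). HBEGF lost its call without siCTL replicate 3 (0.0530), and GADD45B without siADAMTS12 replicate 1 (0.0511), siCTL replicate 2 (0.0524) or siCTL replicate 3 (0.0550). Both lost it with equal library totals (0.102 and 0.0913) and without the intensity trend (0.0580 and 0.0595). CSRNP1, an AXIN1-induced nuclear factor, rose (0.46, adjusted p = 0.000602).

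Many genes known as AP-1 targets fell. Of 21 tested, 13 fell and 0 rose, with a median log2 fold change of -0.47. In the same fit 15.5% of all genes tested fell. ITGA2, a collagen-binding integrin subunit, fell to 943, 633 and 853 normalized counts in siADAMTS12, against 3750, 2645 and 3524 in siCTL (-2.03, limma adjusted p = 2.65e-06). MMP9, a gelatinase, had 74, 47 and 55 in siADAMTS12 against 214, 215 and 216 in siCTL (-1.88). The cytokine gene IL11 was at -1.14. TIMP1, named above beside JUND, fell to 5364, 5202 and 5348 in siADAMTS12, against 6800, 6857 and 7780 in siCTL (-0.43). GAGGGAA was in 1 of the 13 genes that fell, HMOX1, and AGGGAA in 5, against 30.7% and 61.4% of all genes that fell. AGGGAA was in 7 of the 21 AP-1 targets tested. These shares were not matched for 3' UTR length, and the part of the siRNA match in these falls was not tested.

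**Figure D5:**
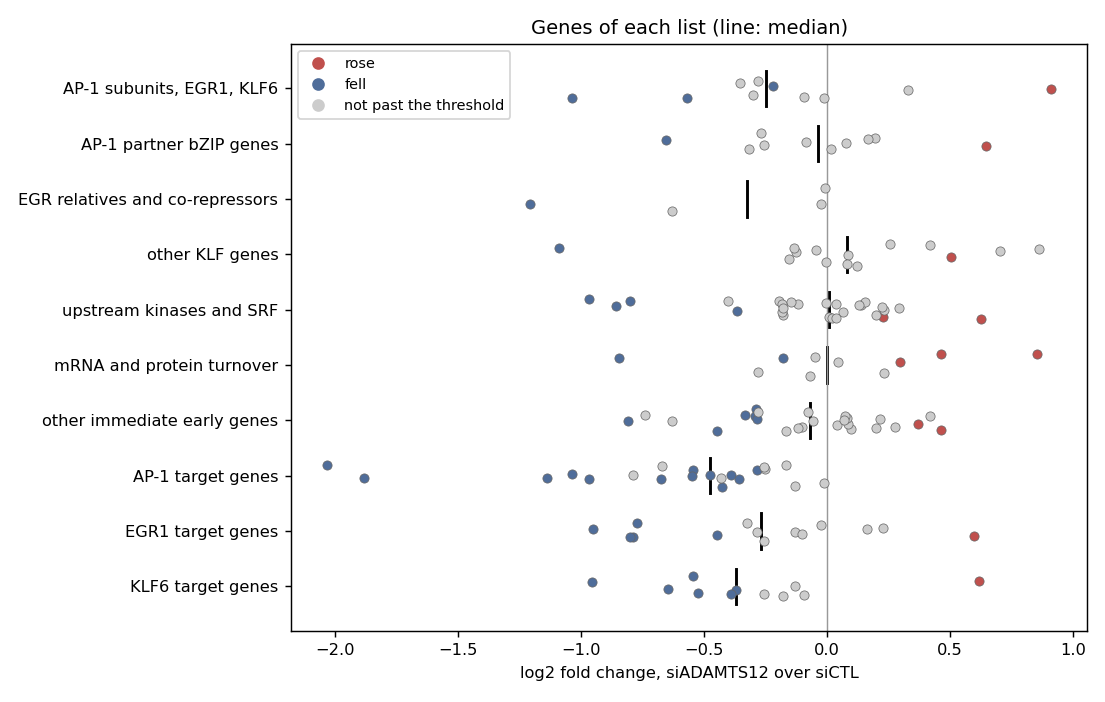
Log2 fold change of siADAMTS12 over siCTL (x axis) for each gene tested of the 10 transcription factor genes (top) and of 9 related lists. Red points rose, blue points fell and grey points did not pass the threshold, and black lines are medians. The AP-1 target genes lie farthest to the left, with a median of -0.47, and no gene of that list rose.

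Of 14 EGR1 target genes, 5 fell and 1 rose (median -0.27), against 15.5% and 11.5% of all genes tested, and 10 passed with the replicate block, against 35.1%. The matrix protein gene THBS1 and the growth factor genes FGF2 and PDGFA were at -0.95, -0.79 and -0.77, and the adhesion receptor gene ICAM1 at -0.80. Of 11 KLF6 target genes, 6 fell and 1 rose (median -0.37), against 15.5% and 11.5% of all genes tested. They included the TGF-beta receptor genes TGFBR2, with 4402, 3890 and 4356 normalized counts in siADAMTS12 against 8481, 7675 and 8375 in siCTL (-0.96), and TGFBR1 (-0.65), and the membrane protease gene MMP14 (-0.53). CDKN1A rose, a cell cycle inhibitor gene that KLF6 is known to activate, with 2636, 2425 and 2128 in siADAMTS12 against 1689, 1549 and 1436 in siCTL (0.62, limma adjusted p = 0.000344). COL1A1, another known KLF6 target, was at -0.18 (adjusted p = 0.177). GAGGGAA was in 1 (FGF2) and AGGGAA in 3 of the 5 EGR1 targets that fell. Among the 6 KLF6 targets that fell, GAGGGAA was in 1 (TGFBR1) and AGGGAA in 4. Over all genes that fell the shares were 30.7% and 61.4%. AGGGAA was in 7 of the 14 EGR1 targets and 6 of the 11 KLF6 targets tested. The part of the siRNA match in these falls was not tested. Some targets stand on more than 1 of these lists, and the counts are therefore not independent.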

How the data were processed

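Per the labels' protocols, TRIzol RNA (500 ng) was made into stranded mRNA libraries. The deposited values are a score: normalized counts that the authors scaled and rounded to whole numbers, as the table's name and values show. STAR, HTSeq, DESeq2 and GRCh38 are listed in the submitters' processing notes without versions, and neither the annotation nor the use of strand in counting is stated in what was used here. Whole reads cannot be rebuilt, so sequencing depth is unknown. The normalized values summed to 30678468 to 31415206 per siADAMTS12 library and 33576945 to 34072515 per siCTL library. Pearson's r across genes was 0.991 to 0.994 within and 0.985 to 0.988 between groups.

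Genes with a mean of at least 10 were kept, and limma 3.58.1 (R 4.3.3; eBayes with intensity trend, group as the only term) was fitted to log2(value + 1) of all 6 libraries after being tested on simulated data. The labels do not say that replicates are separate cultures, and p-values therefore reflect only the spread among these 6 libraries. Same-numbered libraries deviated together (correlation across genes of their deviations from group means 0.367, 0.135 and 0.1325 for numbers 1, 2 and 3, all above 0.1). Unlike-numbered pairs with a replicate 1 were at -0.193 to -0.185, and the pairs of replicates 2 and 3 at 0.061 and 0.063. The pairing of numbers 2 and 3 is thus weaker than that of number 1. Deviations from a group mean cancel out within the group, so the correlations among replicates 2 and 3 are tied to that of replicate 1. Their values above 0.1 are therefore not separate evidence of pairing. A fit blocked on replicate number is given where it changes a call of the 10 genes or the count of a related list. Python 3.11.15, pandas 2.3.3 and matplotlib 3.10.9 were used.

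The 10 genes, the 9 lists and the 5 cell marker lists were chosen with earlier results of these data known, so list counts are descriptions. The text names the 10 genes, ADAMTS12 and, from each list, up to 4 genes past the threshold with the smallest adjusted p, except that some are not reported here. Other genes named (marker genes, BATF, MAF, EGR2, EGR3, EGR4, NAB1, NAB2, KLF7, SRF, MAPK7, ITCH, COL1A1, TIMP1, HMOX1 and HOOK2) were picked after their values were seen. Of 15 alternative settings, 13 were set at the start and 2, on GC content, were added after seeing the data.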

Additional observations from a re-analysis of the deposited data

How the results depend on the processing

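KLF6 and FOS kept their direction and passed in all 15 alternatives. FOSL2 passed in 10 and JUND in 11, each with its direction in all 15. The number of the 10 genes past the threshold was 4, with 3 to 5 when a library was left out. It was 2 without the intensity trend, where 3345 of all 15637 genes tested passed. It was 8 with the replicate block, against 35.1% of all genes tested. With the GC correction and replicate block together it was also 8, against 40.9% of those with a GC value. Over all genes tested, 4222 passed (1798 rose and 2424 fell), with 3103 to 3991 when a library was left out (1230 to 1623 rose, 1873 to 2368 fell) and 6354 with the GC correction and replicate block together, of which 2984 rose. With equal library totals 3868 rose and 1546 fell, so that 28.6% of the calls were falls, against 57.4% as deposited and 48.9% after quantile normalization. The log2 fold change of ADAMTS12 ran from -1.88 to -1.69 and passed in all 15. Among the list genes named by the rule, BATF2, KHSRP, HBEGF and GADD45B lost their call in some alternatives. The cause of these changes was not tested. The block changed no call of the other list genes named by the rule. It did change list counts: 19 of 21 AP-1 target genes and 9 of 11 KLF6 target genes passed, against 35.1% of all genes tested. In the same fit 6 of 10 turnover genes and 3 of 14 other KLF genes passed. FOS, at 30 to 75 normalized counts, has the lowest values of the 10 genes and is the most limited by counting error.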
